A study of Oryctolagus cuniculus with 4 samples.

Results

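The 5 genes described here are the mitochondrially encoded subunits of cytochrome oxidase (COX1, COX2 and COX3) and of ATP synthase (ATP6 and ATP8). They were the rows of the deposited transcript table that carried those symbols and lay on the mitochondrial chromosome (MT), and each was 1 row. They made up 5 of 20294 genes in the table and 5 of its 13 mitochondrial genes, and 0 rows elsewhere carried the same symbols. RNA was taken from whole intact semitendinosus tendons, which serve as hamstring grafts in surgery of the knee, with 1 tendon from each of 4 animals. The rabbits were New Zealand White females and 193 days old. All 4 tendons formed a single untreated group, so the animal, any muscle left after the tendon surface had been scraped and the library could not be told apart. Libraries held polyadenylated RNA of the whole tissue.

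Cytochrome oxidase, complex IV of the respiratory chain, passes electrons to oxygen and pumps protons, and ATP synthase, complex V, uses the proton gradient to make ATP. Both complexes are built from a few subunits made inside the mitochondrion and many subunits encoded in the nucleus. Mitochondrial DNA is transcribed as long precursors that are cut at the transfer RNAs between genes, and ATP8 and ATP6 overlap and stay together on a single messenger RNA. The symbols COX1 and COX2 are also used for the cyclooxygenases, which are unrelated nuclear genes and are not meant here.

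All 5 genes lay on the plus strand of the mitochondrial chromosome of the build OryCun2.0, in the order COX1, COX2, ATP8, ATP6 and COX3. COX1 (ENSOCUG00000029096.1) spanned positions 5354 to 6895 and COX2 (ENSOCUG00000029099.1) positions 7039 to 7722. ATP8 (ENSOCUG00000029101.1) spanned 7796 to 7999, ATP6 (ENSOCUG00000029102.1) 7957 to 8636 and COX3 (ENSOCUG00000029103.1) 8637 to 9420. Each was annotated as a single uninterrupted transcript of a protein-coding gene, with lengths of 1542, 684, 204, 680 and 784 bases in this order. ATP8 and ATP6 shared 43 bases, positions 7957 to 7999, which were 21.1% of ATP8 and 6.32% of ATP6. The gap between ATP6 and COX3 was 0 bases, and the gap between COX2 and ATP8 was 73 bases. The annotated lengths of ATP6 and COX3 left a remainder of 2 and 1 base on division by 3. Several vertebrate mitochondrial messages are known to lack part of their stop codon, which the poly(A) tail completes. The lengths of COX1, COX2 and ATP8 were whole multiples of 3.

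Library totals ran from 19759696 to 30646052 estimated counts, and no pair of tendons agreed within counting noise (chi-square per degree of freedom at least 103 over genes). The members had between 18451 and 765403 estimated counts in a tendon, and 18451 counts carry a counting error of 0.736%. Some tendons lay as near to each other as counting error for a gene, such as tendons 1 and 2 for COX2, and no order is read between such values. The share of TPM held by the tenocyte list was 4.41% ± 1.70 (SD, n = 4), with an entry for 9 of its 10 symbols; SCX had none.

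Levels were compared between genes in TPM, which corrects for length. COX1, the subunit that holds the heme and copper site where oxygen is reduced, had 21421, 24587, 31154 and 29541 TPM in tendons 1 to 4. Tendons 3 and 4 were high and tendons 1 and 2 low, and the mean was 26676 ± 4481 TPM (SD, n = 4). COX2, the subunit that accepts electrons from cytochrome c, had 14720, 14764, 18745 and 18693 TPM. Here the low pair and the high pair of tendons differed by more than the values within each pair, and the mean was 16730 ± 2296 TPM. COX3, a core subunit without metal centres, had 13011, 13150, 15885 and 16809 TPM, with a mean of 14714 ± 1924 TPM and tendon 4 highest.

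Of the ATP synthase genes, ATP6, which forms part of the proton channel, had 12471, 11451, 16304 and 14333 TPM in tendons 1 to 4, with a mean of 13640 ± 2140 TPM. ATP8, a small membrane subunit, had 9050, 7639, 11486 and 9903 TPM, with a mean of 9519 ± 1609 TPM. Both were highest in tendon 3 and lowest in tendon 2 on this scale. By mean TPM, COX1, COX2, COX3, ATP6 and ATP8 ranked 1, 2, 3, 5 and 9 among 20294 genes. In CPM, counts scaled to the library total with no length correction, their ranks were 2, 15, 14, 18 and 84, so the place of the short genes depended on the length correction.

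**Figure D1:**
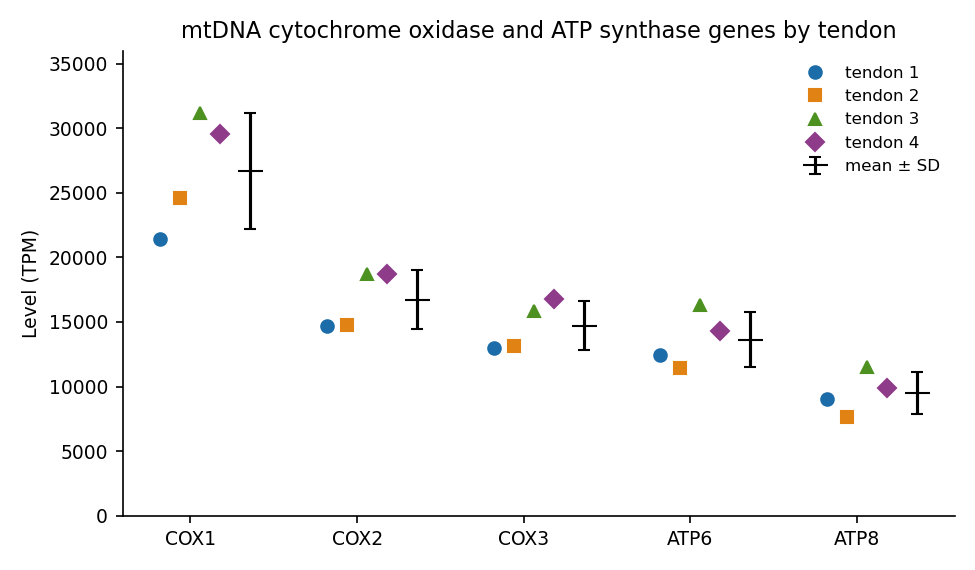
Level in TPM of the 5 mitochondrial genes in tendons 1 to 4 (coloured points), with the mean and SD of the 4 tendons in black. COX1 ran from 21421 to 31154 TPM and ATP8 from 7639 to 11486 TPM, and tendons 3 and 4 lay above tendons 1 and 2 for each gene.

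Together the 5 genes took 7.07%, 7.16%, 9.36% and 8.93% of all TPM in tendons 1 to 4. The mean was 8.13% ± 1.19 (SD, n = 4). The 3 cytochrome oxidase genes took 5.81% ± 0.854 and the 2 ATP synthase genes 2.32% ± 0.373. Without length correction the 5 genes took 4.13% ± 0.769 of counts. Leaving the 3 muscle lists out of the total changed the share to 8.36% ± 1.22.

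Within a tendon, the order of the levels was COX1, COX2, COX3, ATP6 and ATP8 in tendons 1, 2 and 4. In tendon 3, ATP6 stood above COX3. All 10 pairs of members were compared by their TPM ratio within a tendon, using an exact permutation test that flips the signs of the log2 ratios (two-sided), and Benjamini-Hochberg adjustment over the 10 pairs. The smallest p that 4 tendons allow is 0.125, so no pair could pass 0.05. For 9 of the 10 pairs the same gene was the higher in each of the 4 tendons, each with p = 0.125 and adjusted p = 0.139 in the exact permutation test.

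COX1 exceeded COX2 1.46-, 1.67-, 1.66- and 1.58-fold in tendons 1 to 4, a mean log2 ratio of 0.67 ± 0.09 (SD, n = 4). It exceeded COX3 1.65-, 1.87-, 1.96- and 1.76-fold. Complex IV holds these subunits in equal numbers, while their transcripts differed in level in each tendon. COX1 exceeded ATP6 by a mean log2 ratio of 0.97 ± 0.14 and ATP8 by 1.49 ± 0.19. In tendon 1 all 4 ratios with COX1 on top were lowest.

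COX2 and COX3, which lie on either side of the ATP genes, kept almost the same ratio, at 1.13, 1.12, 1.18 and 1.11 in tendons 1 to 4. Its SD on the log2 scale, 0.04, was the lowest of the 10 pairs. The sign of this small difference was set by the length correction, since the mean log2 ratio was -0.01 in CPM. The ratio of COX3 to ATP6 was 1.04, 1.15, 0.974 and 1.17 (mean log2 ratio 0.11 ± 0.12; exact permutation test, p = 0.25, adjusted p = 0.25). The difference between these 2 genes, which abut on the chromosome, was smaller than the spread between tendons.

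ATP6 exceeded ATP8 1.38-, 1.50-, 1.42- and 1.45-fold in tendons 1 to 4, a mean log2 ratio of 0.52 ± 0.05 (SD, n = 4), although both lie on the same message. The sign of this ratio depended on the length used. With 100 bases taken off every length, as an approximation of the stretch in which a sequenced fragment can start, ATP8 had a mean of 16180 TPM. The ratios of ATP6 to ATP8 were then 0.824, 0.896, 0.848 and 0.865. The ratios of COX3 to ATP8 were 0.840, 1.01, 0.808 and 0.992 under that setting. ATP8 therefore has no firm place in the order of levels, and COX1 stayed first in each tendon in TPM, in CPM and with the shorter lengths.

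**Figure D2:**
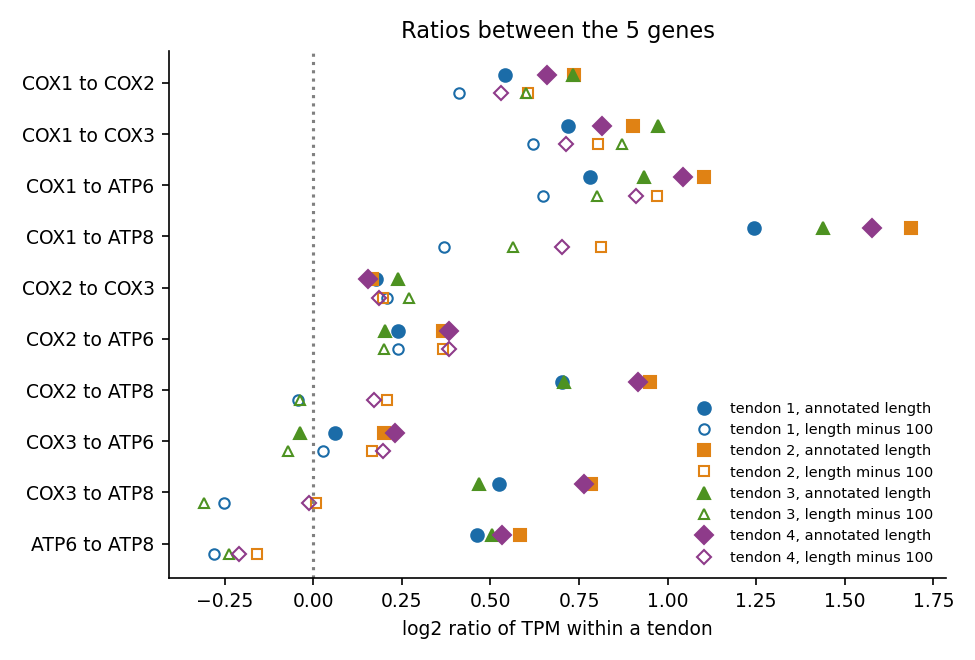
Log2 ratio of TPM within a tendon for the 10 pairs of the 5 genes, with annotated lengths (filled) and with 100 bases taken off each length (open). Ratios with ATP8 moved furthest with the length, and ATP6 to ATP8 passed from between 1.38 and 1.50 to between 0.824 and 0.896.

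The deposited counts of ATP8 had decimals in 3 tendons (18450.9, 26640.6 and 35874.5 in tendons 1 to 3), as arises when reads are divided between transcripts. In tendon 1, ATP6 had 84747.1, and the sum with ATP8 was the whole number 103198. Of the 20 member values, 4 had decimals, while 15 had 6 digits, for which the table printed no decimals. Joined over the 841 bases that ATP8 and ATP6 cover together, the pair had 123, 190, 244 and 235 counts per base in tendons 1 to 4. COX3 had 130, 225, 243 and 282 counts per base, or 1.06, 1.18, 0.995 and 1.20 times the joined pair. COX2 had 1.20, 1.33, 1.17 and 1.34 times the joined pair, so the step from COX2 to the ATP genes did not depend on how the shared bases were divided.

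Along the mitochondrial chromosome the 5 genes formed a block of high levels in TPM between ND2 and ND3, which encode subunits of complex I. The 5 genes took 72.0%, 72.8%, 71.9% and 69.3% of the TPM of all 13 mitochondrial genes, a mean of 71.5% ± 1.51 (SD, n = 4). ND4L was near 0 in tendons 2 and 3 (6.36 and 5.55 TPM), and without it the share was 72.7% ± 1.23. The highest other mitochondrial genes were ND4 (complex I) at 7560 ± 1609 TPM and CYTB (cytochrome b of complex III) at 7056 ± 1168 TPM. ATP8, the lowest member by mean TPM with annotated lengths, stood above ND4 in each tendon, with ratios from 1.20 to 1.48. This rested on the length correction. In mean CPM, ATP8 (1062) and ATP6 (5075) lay below ND4 (5715), while COX1, COX2 and COX3 lay above it.

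**Figure D3:**
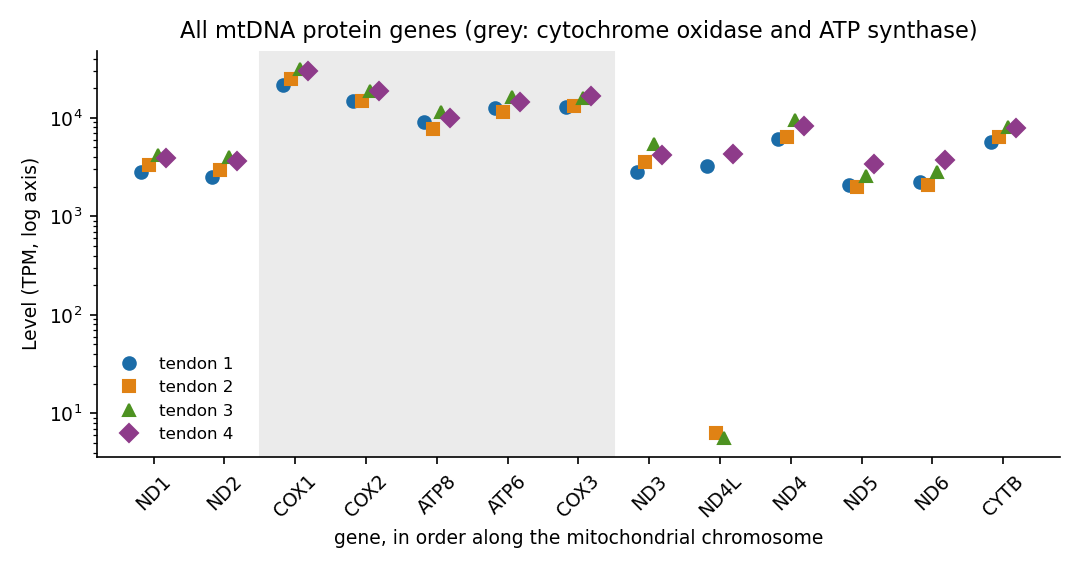
Level in TPM (log axis) of the 13 mitochondrial protein genes, placed in their order along the chromosome, in tendons 1 to 4; grey marks the 5 cytochrome oxidase and ATP synthase genes. These 5 stood at 7639 TPM or above in each tendon; ND4L was at 6.36 and 5.55 TPM in tendons 2 and 3.

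COX1 kept steadier ratios to ND1 and CYTB, which lie outside the block, than to its neighbour COX2 (SD of the log2 ratio 0.09). The ratio of COX1 to ND1, a complex I gene upstream, was 7.59, 7.42, 7.37 and 7.53 in tendons 1 to 4 (SD of the log2 ratio 0.02). Its ratio to CYTB was 3.75, 3.81, 3.85 and 3.71 (SD 0.02). By contrast, COX1 to ATP8 varied from 2.37 to 3.22. Ratios of members to ND5 (complex I) and ND6, the only mitochondrial protein gene on the minus strand, were lowest in tendon 4 for all 5 members, and COX1 to ND6 was 9.70, 11.8, 11.1 and 7.92. Over 35 pairs of a member with another mitochondrial gene, ND4L left out, the SD of the log2 ratio ran from 0.02 to 0.30 with a median of 0.17. The median over the 10 pairs of members was 0.12. Antisense reads could enter these values, since the use of strand was not given in the sources used here.

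Differences between tendons were measured on TMM-normalised CPM, counts scaled by the trimmed mean of M-values of edgeR, because a tendon's TPM also depends on the lengths of its other transcripts. Over 8780 genes averaging 10 CPM or more, the median of log2 TPM relative to TMM-normalised CPM, centred over tendons, was -0.12 in tendon 2 and between 0.01 and 0.06 in the others. This shift also holds the TMM factor, which was 0.968, 0.939, 1.04 and 1.06 in tendons 1 to 4. It therefore does not measure the effect of transcript lengths alone. In TMM-normalised units COX1 had 17265, 22532, 26009 and 23971 CPM in tendons 1 to 4. COX2 had 5263, 6001, 6941 and 6728 CPM, and COX3 had 5332, 6127, 6743 and 6935 CPM. All 3 were lowest in tendon 1.

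ATP6 had 4432, 4628, 6002 and 5129 CPM and ATP8 had 965, 926, 1269 and 1063 CPM, with tendon 3 highest for both. In this unit 4 of the 5 genes were lowest in tendon 1, against 30.1% of the 8780 genes, and 4 of 5 were highest in tendon 3, against 15.7%. Tendons 1 and 3 were the lowest and highest for the 5 genes summed, so nothing is read from these counts beside those shares. ATP6 was lowest in tendon 2 in TPM, so its lowest tendon depended on the scale. The 5 genes summed had 33257, 40213, 46963 and 43826 CPM, and the order 1, 2, 4, 3 from low to high was that of COX1, COX2 and ATP6. It was found for 2.4% of the 8780 genes; nothing is read from the members' own count, since their sum defines that order. Of the 8 other mitochondrial genes, 5 had it too (ND1, ND2, ND3, ND4 and CYTB).

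The spread between tendons lay near that of the median gene, with COX1 above it. The SD of log2(TMM-normalised CPM + 1) was 0.26 for COX1, 0.18 for COX2, 0.17 for COX3, 0.19 for ATP6 and 0.20 for ATP8. Among the 8780 genes the median SD was 0.18, and 72.0% of the genes had a lower SD than COX1 and 48.3% a lower one than COX3. A range of 2-fold or more over the tendons was found for 0 of the 5 genes and for 10.2% of the 8780 genes. A range of 1.5-fold was reached by 1 of 5, COX1 (1.51-fold), against 28.9% of the 8780 genes, and with library totals by ATP8 too (1.51-fold). Without tendon 1 the SD fell to 0.10 for COX1, 0.11 for COX2 and 0.09 for COX3. Without tendon 3 it fell to 0.11 for ATP6 and 0.11 for ATP8, so 1 tendon set much of each spread.

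**Figure D4:**
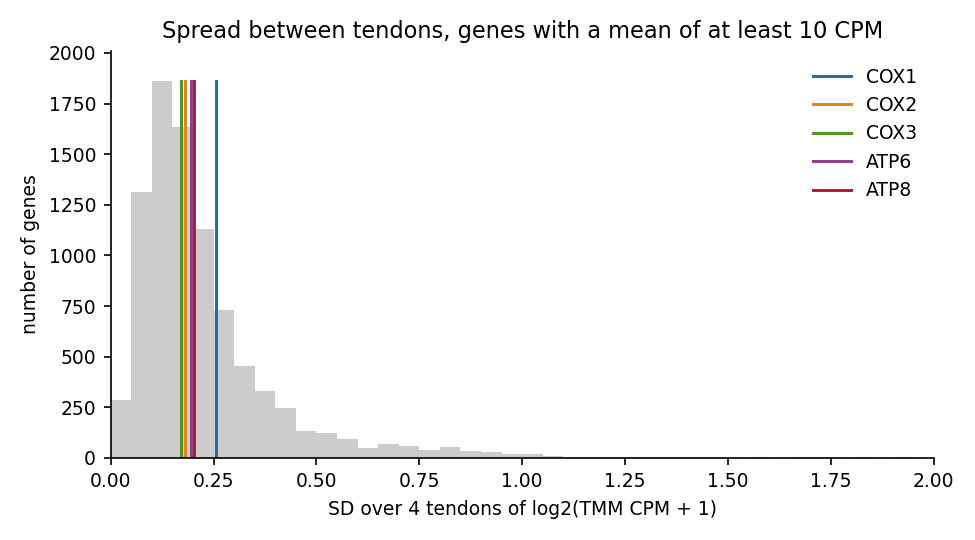
Number of genes by SD over the 4 tendons of log2(TMM-normalised CPM + 1), for 8780 genes averaging 10 CPM or more (grey bars; 26 genes with an SD of 2 or more are not drawn), with vertical lines at the 5 mitochondrial genes (line height carries no value). The lines fall between 0.17 and 0.26, around and above the median of 0.18.

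Subunits of the same complexes that are encoded in the nucleus followed another order of tendons. An entry was found for 7 nuclear cytochrome oxidase subunits, of which 6 averaged 10 CPM or more, and for 7 nuclear ATP synthase subunits, all above it. COX4I1, a regulatory subunit of complex IV, had 180, 280, 217 and 222 TMM-normalised CPM in tendons 1 to 4. COX5A, another subunit of complex IV, had 47.3, 110, 76.9 and 95.8 CPM. ATP5A1, the alpha subunit of the ATP synthase catalytic head, had 385, 581, 426 and 522 CPM. On this scale each of these was highest in tendon 2, while ATP5A1 was highest in tendon 4 in TPM (521 against 514 in tendon 2).

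In TMM-normalised CPM, 6 of 6 nuclear cytochrome oxidase subunits and 7 of 7 nuclear ATP synthase subunits were highest in tendon 2, against 31.4% of the 8780 genes and 0 of the 5 mitochondrial members, a count that fell to 1 of 7 for ATP synthase with library totals and in TPM. The order 1, 3, 4, 2 from low to high was found for 5 of 6 nuclear cytochrome oxidase and 7 of 7 nuclear ATP synthase subunits. It was found for 9.31% of the 8780 genes and 0 of the 5 members. Since the 7 ATP synthase subunits summed define this order, with tendon 2 highest, nothing is read from their own counts. With library totals and in TPM, tendon 2 stayed highest for 6 of 6 cytochrome oxidase subunits. Tendon 4 was then highest for 6 of 7 ATP synthase subunits. With TMM, DESeq2 size factors, library totals and TPM alike, 0 of 5 members were highest in tendon 2. Median SDs were 0.36 for the nuclear cytochrome oxidase subunits, 0.27 for the nuclear ATP synthase subunits and 0.19 for the members.

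In summed TPM, the 3 mitochondrial cytochrome oxidase genes stood 35.3-, 24.2-, 38.2- and 32.8-fold above the 7 nuclear subunits found, in tendons 1 to 4. On the log2 scale this was 5.01 ± 0.29 (SD, n = 4; same exact permutation test, p = 0.125, adjusted p = 0.125 over 2 ratios). The 2 mitochondrial ATP synthase genes stood 10.001-, 6.66-, 11.2- and 8.18-fold above the 7 nuclear ATP synthase subunits, with a mean log2 ratio of 3.14 ± 0.33 and the same p. Both ratios were lowest in tendon 2. Symbols such as COX6C, COX7C and ATP5B had no entry, so the nuclear sums cover part of each complex and the folds are higher than they would be with every subunit.

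Genes of skeletal muscle, a tissue rich in mitochondria, were detected in each tendon and were read beside the members. The 3 muscle lists took 1.19%, 4.52%, 2.36% and 3.20% of TPM in tendons 1 to 4. Slow fibre genes were highest in tendon 2 for 7 of 8 genes, and genes common to all fibres for 11 of 16, against 31.4% of the 8780 genes. The nuclear subunits' order 1, 3, 4, 2 was found for 10 of 16 genes common to all fibres and 4 of 8 slow fibre genes. It was found for 9.31% of the 8780 genes. ACTA1, skeletal muscle actin, had 1734, 8883, 3818 and 4693 TMM-normalised CPM. Its highest tendon was 5.12 times its lowest, against 1.30 to 1.51 times for the members. Fast fibre genes were highest in tendon 4 for 7 of 7, for which the share over all genes was not counted. The tendon with the highest muscle share, tendon 2, had the second lowest sum of the 5 members, and tendon 1 was lowest in both. The part of muscle in the members' levels was not tested.

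Markers of other cell types were set beside the same tendons. Endothelial genes were lowest in tendon 1 for 8 of 8, against 30.1% of the 8780 genes. So were adipocyte genes for 4 of 4, slow fibre genes for 8 of 8 and macrophage genes for 3 of 7. Of the endothelial genes 3 of 8 had the members' order 1, 2, 4, 3, against 2.4% of the 8780 genes. They were PECAM1 (an endothelial adhesion molecule), KDR (a VEGF receptor) and TIE1 (a receptor kinase). PECAM1 had 75.3, 103, 151 and 127 TMM-normalised CPM. The endothelial list summed to 400 to 720 CPM, the macrophage list to 141 to 360 CPM and the adipocyte list to 474 to 1763 CPM, each sum highest in tendon 4. For the endothelial list this came from VWF (von Willebrand factor), with 168, 262, 264 and 353 CPM. By gene, 5 of 8 endothelial genes were highest in tendon 3, against 15.7% of the 8780 genes. Tenocyte genes, among them the collagen and proteoglycan genes, were lowest in tendon 1 for 0 of 8, and their sum was 120930, 96695, 54634 and 52675 CPM. Of the erythroid symbols only 2 had an entry, with a sum of at most 2.57 CPM. In whole tissue, fewer cells of a type and less RNA per cell cannot be told apart, and the part of these cell types in the members' levels was not tested.

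**Figure D5:**
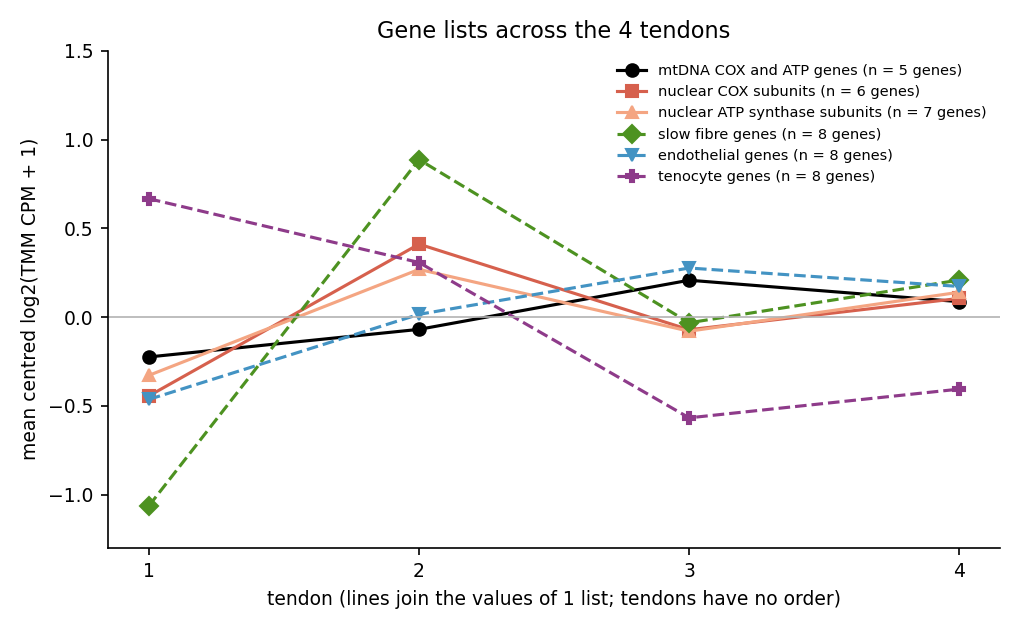
Mean over genes of centred log2(TMM-normalised CPM + 1) in tendons 1 to 4 for the 5 mitochondrial members and 5 other gene lists, counting genes averaging 10 CPM or more; lines only join the values of a list. The members ran from -0.22 in tendon 1 to 0.21 in tendon 3, while nuclear subunits of the same complexes were highest in tendon 2 (0.41 for cytochrome oxidase and 0.27 for ATP synthase, the latter mostly highest in tendon 4 with library totals), as were slow fibre genes (0.89).

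Genes that build these complexes or act on mitochondrial RNA were expressed at far lower levels than the members. Of 28 cytochrome oxidase assembly symbols 15 had an entry, led by the copper chaperone gene COX17 at 200 ± 52.6 TPM and by COA3, an assembly factor that acts on COX1, at 128 ± 6.75 TPM. Of these, 5 reached 10 CPM, and 4 of 5 were lowest in tendon 1, against 30.1% of the 8780 genes. The members' order of tendons was found for 0 of 5, against 2.4% of the 8780 genes. ATP synthase assembly genes were led by FMC1 at 101 ± 7.64 TPM, with 0 of 3 in that order. TFAM, which packages mitochondrial DNA and starts its transcription, had 41.6, 40.7, 46.2 and 45.8 TMM-normalised CPM, with a highest tendon 1.13 times the lowest. MTERF2, of the mitochondrial termination factor family, was highest in tendon 3 at 15.03 CPM, while MTERF3 of the same family and TFB1M, a ribosomal RNA methyltransferase gene, were highest in tendon 2 at 14.5 and 11.8 CPM. Of the 5 genes of mitochondrial transcription and upkeep that reached 10 CPM, 0 had the members' order of tendons. MTERF1 of the same list, below 10 CPM, had that order, with 2.98, 3.37, 5.23 and 4.10 CPM in tendons 1 to 4. The order was found for 2.4% of the 8780 genes, so nothing is read from 0 in lists this short.

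LRPPRC, which binds and stabilises mitochondrial messages, had 159, 167, 155 and 158 CPM, a range of 1.07-fold. Its partner SLIRP had 34.0, 47.4, 44.2 and 44.7 CPM. In this group, 15 genes of mitochondrial RNA processing averaged 10 CPM or more. Of these, 0 ranged 2-fold or more over the tendons, against 10.2% of the 8780 genes. The members' order of tendons was found for 1 of 15, against 2.4% of the 8780 genes. It was TRMT10C, a subunit of the enzyme that cuts transfer RNAs from the precursors. Regulators of mitochondrial biogenesis were led by GABPA, a transcription factor gene, at 43.4 ± 3.68 TPM, and 0 of 6 had the members' order. Nothing is read from these counts beside those shares.

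The genes outside mitochondrial DNA with the pattern most like the members were ranked by the root mean square difference of their centred log2(TMM-normalised CPM + 1) from the members' mean pattern, over 4 tendons. SLC50A1 (a sugar transporter gene) was nearest at 0.011, with 18.1, 20.03, 24.3 and 22.2 CPM in tendons 1 to 4. CDS2 (a phospholipid synthesis gene, 0.021), MED7 (a Mediator subunit gene, 0.025), ZNF366 (a zinc finger gene, 0.032) and IL1R1 (an interleukin-1 receptor gene, 0.032) followed. The members themselves lay between 0.030 and 0.089 from their mean pattern. As many as 170 of 8767 genes outside mitochondrial DNA lay within 0.089, where the median was 0.234, so many genes matched as well over 4 tendons.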

How the data were processed

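The authors deposited 1 column of estimated counts per tendon, with a row per transcript and no scaling for depth or length. Per the submitters' processing notes, kallisto 0.42.4, bcl2fastq, FastQC and the build OryCun2.0 were used, without the role of each; their filters and strand setting are not given in the sources used here. According to the labels' protocols, RNA was selected with oligo dT and prepared with a TruSeq kit.

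Counts were summed per gene. TPM used annotated lengths; TMM-normalised CPM used counts rounded for edgeR 4.0.16 (R 4.3.3), with genes of at least 1 CPM in at least 2 tendons. Its common biological coefficient of variation, with an intercept alone, was 0.264 over 12740 genes. Ratios were tested by exact sign-flip permutation. Alternatives were DESeq2 1.42.0 size factors, library totals, other lengths, denominators, pseudocounts and filters, and leaving out single tendons. Scripts ran in Python 3.11.15 and were tested on simulated data. P-values take the 4 animals as units. They are 0.125 whenever all 4 log2 ratios share a sign, whatever their spread.

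Members and 17 gene lists were chosen with earlier results of these data known. Named genes were the 13 mitochondrial genes, the highest by mean TPM in each list (at most 4), the 5 most alike in pattern, genes of a member's transcript length outside mitochondrial DNA, and genes that make up a count of at most 5. ACTA1, SLIRP and PECAM1 were printed as examples and are not typical of their lists. The SD of log2 expression was 0.97, 0.21 and 0.43, against list medians of 0.95, 0.13 and 0.34. Rows of a member's length numbered 9, at most 317 TPM; copies of mitochondrial DNA in the nucleus were not examined, and no sequence of the members is printed.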

Additional observations from a re-analysis of the deposited data

Results flagged for a closer look

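Of 119 values examined for a tendon apart from the other 3, by Dixon's test of the gap over the whole range at its 95% critical value, 5 passed; chance flags about 1 in 20. None was a level, share or ratio of the 5 mitochondrial genes. In TPM, tendon 4 stood above the others for the fast fibre genes MYH2 (0.998), TNNC2 (0.980), MYLPF (0.973) and ATP2A1 (0.884). TRIR, a gene of the same transcript length as COX3, stood lowest in tendon 3 (0.831).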

How the results depend on the processing

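No paired analysis was possible because the 4 tendons form 1 group. In CPM the levels of COX2, COX3, ATP6 and ATP8 were 6267, 6316, 5075 and 1062, and the summed share was 4.13%. With 100 bases off each length ATP8 was 16180 TPM, and the log2 ratio of COX3 to ATP8 turned to -0.14 and of ATP6 to ATP8 to -0.22. The log2 ratio of COX2 to COX3 was -0.013 in CPM; in these 3 cases the sign followed the length correction. Scaled to nuclear transcripts alone all 5 genes were higher by the same factor, at 30186 (COX1), 18925 (COX2), 16642 (COX3), 15431 (ATP6) and 10770 TPM (ATP8). Of mitochondrial TPM the share was 71.5%, and 72.7% without ND4L, a setting chosen after seeing the data. Genes with a 2-fold range numbered 894, 2407 with a mean of at least 1 CPM, and 2539 at 1.5-fold. Genes in the members' order of tendons numbered 211, 436 with library totals and 372 with a mean of at least 1 CPM.

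With each tendon left out in turn, SDs of log2 expression ran from 0.10 to 0.31 (COX1), 0.11 to 0.22 (COX2), 0.094 to 0.21 (COX3), 0.11 to 0.24 (ATP6) and 0.11 to 0.25 (ATP8), and the 2-fold genes from 481 (without tendon 1) to 790, with 588 without tendon 4. Of 168 alternative values 3 reversed and 20 moved; the other 145 include ratios that kept their sign alone, such as COX1 to ATP8, with a log2 ratio of 4.405 in CPM and 0.61 with 100 bases off each length, and COX2 to ATP8, with 2.56 and 0.07. Depth did not limit the members. The number of tendons, 4, did, and so did the length correction, which set the 3 reversed signs.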
